A study of Mus musculus with 16 samples.

Results

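The response to pristane was measured in footpads of AIRmax mice, an outbred line selected over generations for a strong acute inflammatory reaction. The comparison sets 4 AIRmax pristane arrays, taken at day 160, against 4 AIRmax control arrays, taken at day 0, and covers all 19938 genes with a probe set that names only them. The series holds 16 arrays, in which the AIRmin line, selected for a weak reaction, has 4 pristane and 4 control arrays of the same days. Pristane, a mineral oil hydrocarbon, was given as 2 intraperitoneal injections of 0.5 ml, 60 days apart, and days are counted from the second injection. The labels call the day 0 mice control and do not state what they had received. Each group held 2 males and 2 females, and an age of 2 to 4 months is given for all groups. By the day count, this cannot be the age of the day 160 mice at sampling, so age at sampling may differ between groups. Treatment goes with the day, with any difference in age at sampling and with the run of array numbers, so these cannot be told apart. The numbers ran from 109 to 112 for pristane and from 105 to 108 for control. Arthritis scores of the arrayed mice are not analysed here. The question put to these arrays was which genes, beyond the chemokines, differ in the footpads of pristane mice of the susceptible line.

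Pristane injected into the peritoneum gives some mouse lines a chronic arthritis of the paws. In inflamed joints, macrophages and synovial fibroblasts respond to cytokines such as tumor necrosis factor, interleukin 1 and interleukin 6. Fibroblasts then release enzymes that degrade matrix, while acute phase proteins and chemokines are made locally and neutrophils and monocytes enter the tissue. A footpad also holds thick epidermis, sweat glands, fat, tendon, muscle, nerve and small bones with their marrow, and every one of these contributes RNA to a whole-footpad sample.

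Of the 19938 genes, 56 (0.281%) passed a Benjamini-Hochberg adjusted p of 0.05 in limma, 28 (0.14%) higher and 28 (0.14%) lower in pristane footpads. The genes that rose were led by Saa3, Mmp3, Ccl3, Acod1, Cxcl5 and Timp1, and the genes that fell were led by Hhip, Fcmr, Chad, Fcer2a, Atp6v1b1 and Bank1. In all 56 genes the 4 pristane arrays did not overlap the 4 control arrays, which held for 1872 of all genes (9.39%), 5.09% higher and 4.3% lower. At an unadjusted p under 0.05 there were 1503 higher genes (7.54%) and 1376 lower genes (6.9%). All counts of AIRmax list members at that p given below are to be read beside these shares. The count of calls depended on single arrays. It was 5, 4 and 7 genes without control arrays 105, 106 and 107, and 76 without control array 108. It was 107 without pristane array 109, and 16, 25 and 18 without pristane arrays 110, 111 and 112. Timp1, Saa3, Slc39a14 and Socs3 were called in each of these 8 fits, and no called gene changed direction in any of them. Il4ra and Cnp were called in none of the 8. Others, such as Cd14, C3ar1, Lbp, Cd68, Cxcl5 and Hhip, were called in only 1 of the 8.

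Signals are log2 values, so a difference of 1 is a 2-fold change, and a value given per array follows the order of the array numbers (males first in each group). Array medians lay between 5.435 and 5.486. Xist and 3 Y-linked genes separated the labelled males from the labelled females. Pairs of arrays correlated at 0.9679 to 0.9889 within groups and at 0.9664 to 0.9852 between groups. As a guide to background, 95% of 1194 olfactory and vomeronasal receptor genes had mean signals below 4.311. A group mean under that level is not shown to exceed background, and a fold against it is given as a lower bound. Such a group mean was found for 7 of the 56 called genes. Krt9, the keratin of palm and sole skin, had mean signals of 9.14 ± 0.74 in pristane and 10.38 ± 0.33 in control footpads (SD, n = 4 each), and the epidermal keratins Krt1 and Krt5 had means from 11.64 to 12.40, so markers of foot skin were present.

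**Figure D1:**
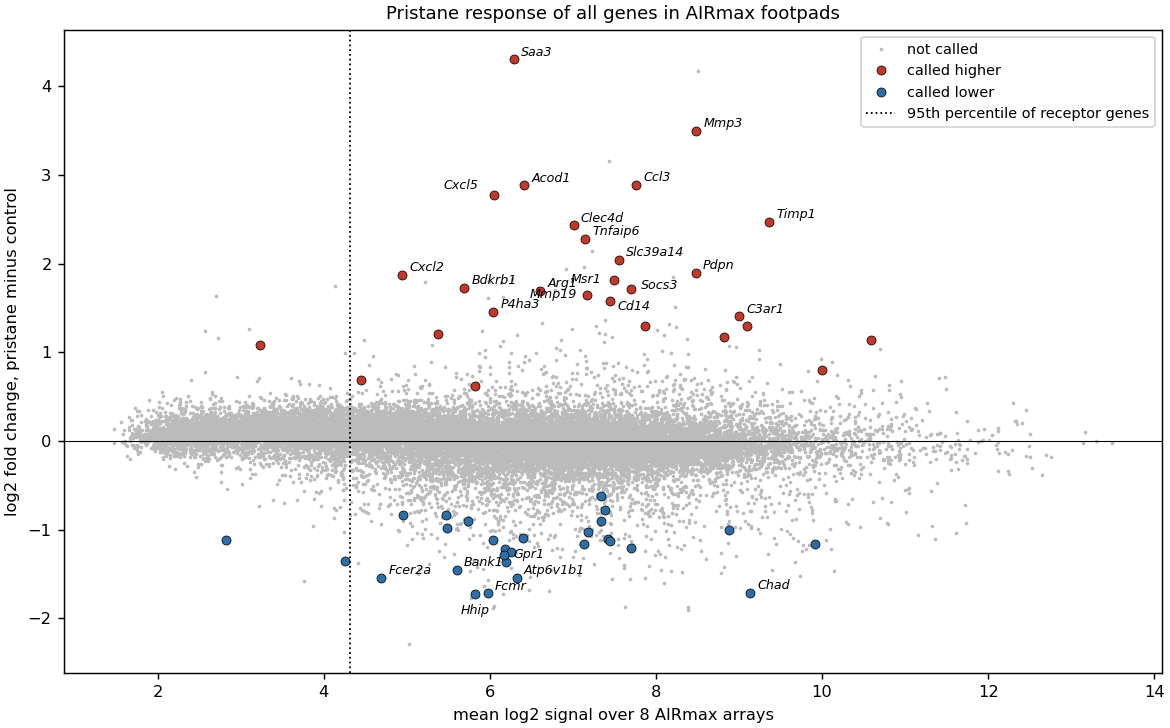
Log2 fold change (pristane minus control) of 19938 genes in AIRmax footpads against their mean log2 signal over the 8 arrays, with 28 genes called higher in red, 28 called lower in blue and the background level of 4.311 dotted. Most called genes lie well right of the dotted line, and several uncalled genes, such as the grey point at 4.17 (Cxcl13), moved as far as called ones with a wider spread.

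The promoters of Saa3, Socs3 and Timp1 are shown because these genes passed whichever array was left out. Each window runs from 250 bases before to 50 bases after the RefSeq start site on GRCm38.p6, and capitals mark matches on either strand to the letters of 4 motifs: AP-1 (TGANTCA), STAT3 (TTCNNNGAA), NF-kappaB (GGG, then any 3 bases, then TTCC) and C/EBP (TTNNGNAA). The Saa3 window (chr7:46715627-46715926, minus strand) held 4 C/EBP matches, the Socs3 window (chr11:117969317-117969616, minus strand) held 1 STAT3 match, and the Timp1 window (chrX:20869916-20870215, plus strand) held 1 C/EBP match. The annotated gene spans reach 46719615 for Saa3 and 117970336 for Socs3. The start sites used for these genes therefore lie inside the spans and are not their outermost ends.
Saa3: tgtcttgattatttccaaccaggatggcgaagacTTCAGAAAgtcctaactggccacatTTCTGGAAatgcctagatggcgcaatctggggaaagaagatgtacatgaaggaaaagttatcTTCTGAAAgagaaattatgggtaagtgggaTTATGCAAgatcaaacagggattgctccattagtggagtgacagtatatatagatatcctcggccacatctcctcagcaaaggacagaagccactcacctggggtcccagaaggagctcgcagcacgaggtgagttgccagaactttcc
Socs3: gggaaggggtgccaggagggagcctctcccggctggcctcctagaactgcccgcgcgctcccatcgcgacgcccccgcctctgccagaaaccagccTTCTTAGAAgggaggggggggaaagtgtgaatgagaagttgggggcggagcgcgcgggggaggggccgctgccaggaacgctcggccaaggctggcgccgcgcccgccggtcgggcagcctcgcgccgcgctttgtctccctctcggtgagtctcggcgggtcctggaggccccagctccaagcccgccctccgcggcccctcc
Timp1: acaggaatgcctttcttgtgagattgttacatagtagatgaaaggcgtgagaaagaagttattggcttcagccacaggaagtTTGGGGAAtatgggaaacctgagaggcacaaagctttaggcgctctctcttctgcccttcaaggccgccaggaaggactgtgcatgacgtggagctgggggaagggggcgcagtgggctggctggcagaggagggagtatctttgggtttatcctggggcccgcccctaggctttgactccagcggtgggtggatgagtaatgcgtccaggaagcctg
Among the genes called higher, 17 had a window, and AP-1 letters stood in 4, STAT3 letters in 2, NF-kappaB letters in 4 and C/EBP letters in 10 of the 17 windows. The genes called lower had 33 windows for 26 genes, with matches in 3, 1, 1 and 15 of them in the same order of motifs. Over all 32851 windows the shares were 7.81% for AP-1, 8.3% for STAT3, 5.56% for NF-kappaB and 40.7% for C/EBP. A match of letters is a description of the window and not evidence of binding.

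Acute phase genes were among the clearest rises. Saa3 (chr7:46711998-46719615), a serum amyloid A gene that macrophages and other cells express outside the liver, had signals of 8.19, 8.74, 7.69 and 9.12 on the pristane arrays, against 4.19, 3.97, 3.72 and 4.67 on the control arrays. The control mean was under the background level, and Saa3 was at least 16.4-fold higher in pristane footpads (measured log2 difference 4.30 ± 0.31 SE, adjusted p = 0.0024). The liver-type genes Saa1 and Saa2, near-identical copies whose probes may not be separable, were below background in both groups. Socs3, an inhibitor of interleukin 6 signalling that this signalling itself induces, read 8.31, 8.45, 8.57 and 8.90 in pristane and 6.72, 6.86, 6.87 and 6.95 in control footpads, a 3.27-fold rise (adjusted p = 0.00265). Lbp, which passes lipopolysaccharide to Cd14, averaged 11.16 ± 0.21 in pristane and 10.03 ± 0.32 in control footpads and rose 2.20-fold (adjusted p = 0.0419). These 3 were the called members of 27 measured genes of the acute phase and interleukin 6 list, none was called lower, and 25 of the 27 had a positive fold change. For 9 of the 27, both group means lay below the background level. The list's median log2 fold change was 0.32, beside 0.03 over all genes. Its score, which averages over the list how far each gene stood from its own 8-array mean, was 0.36, 0.27, 0.08 and 0.48 on the pristane arrays and -0.42, -0.28, -0.32 and -0.17 on the control arrays, without overlap. Il6 itself was below the background level in both groups. Slc39a14, a zinc and iron transporter of the plasma membrane, which is known as an interleukin 6 target in liver and stood in no list, read 8.46, 8.74, 8.12 and 8.98 in pristane footpads, against 6.59, 6.61, 6.64 and 6.28 in control footpads (4.12-fold, adjusted p = 0.00664).

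Matrix metalloproteinases and an inhibitor of them were among the largest rises. Mmp3 (chr9:7445822-7455975), stromelysin 1, which cleaves proteoglycans and activates other matrix metalloproteinases, had signals of 10.48, 10.22, 9.12 and 11.11 in pristane footpads and 6.77, 7.14, 6.65 and 6.38 in control footpads. This was an 11.3-fold rise (adjusted p = 0.0181), with the lowest pristane array almost 2 log2 units above the highest control array. Timp1 (chrX:20870166-20874737), a secreted inhibitor of these enzymes, read 10.75, 10.58, 10.29 and 10.76 on the pristane arrays, against 8.06, 8.32, 8.19 and 7.92 on the control arrays. Its rise of 5.54-fold carried the smallest adjusted p of all genes (0.00037). Mmp19, a metalloproteinase of basement membrane and cartilage matrix, averaged 8.0 ± 0.48 in pristane and 6.35 ± 0.27 in control footpads (3.14-fold, adjusted p = 0.0355). Of the 21 measured genes of the list, 3 rose, none passed as lower and 17 had a positive fold change, with a median of 0.25. At an unadjusted p under 0.05, 6 were higher and 3 lower, beside 7.54% higher and 6.9% lower of all genes. The 3 lower ones were Mmp12, the macrophage elastase (-0.78 ± 0.18 SE, lower without overlap), Timp4 (-0.76 ± 0.33 SE) and Timp3. Among the others, the collagenase Mmp13 had means of 11.22 in pristane and 10.18 in control footpads (log2 difference 1.03 ± 0.22 SE), and the inhibitor Timp3 had means of 9.23 in pristane and 9.95 in control footpads (difference -0.72 ± 0.13 SE), neither called. No gene of the 17 ADAMTS proteases was called. The aggrecanase Adamts4 came closest, with a difference of 0.85 ± 0.19 SE (adjusted p = 0.115).

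**Figure D2:**
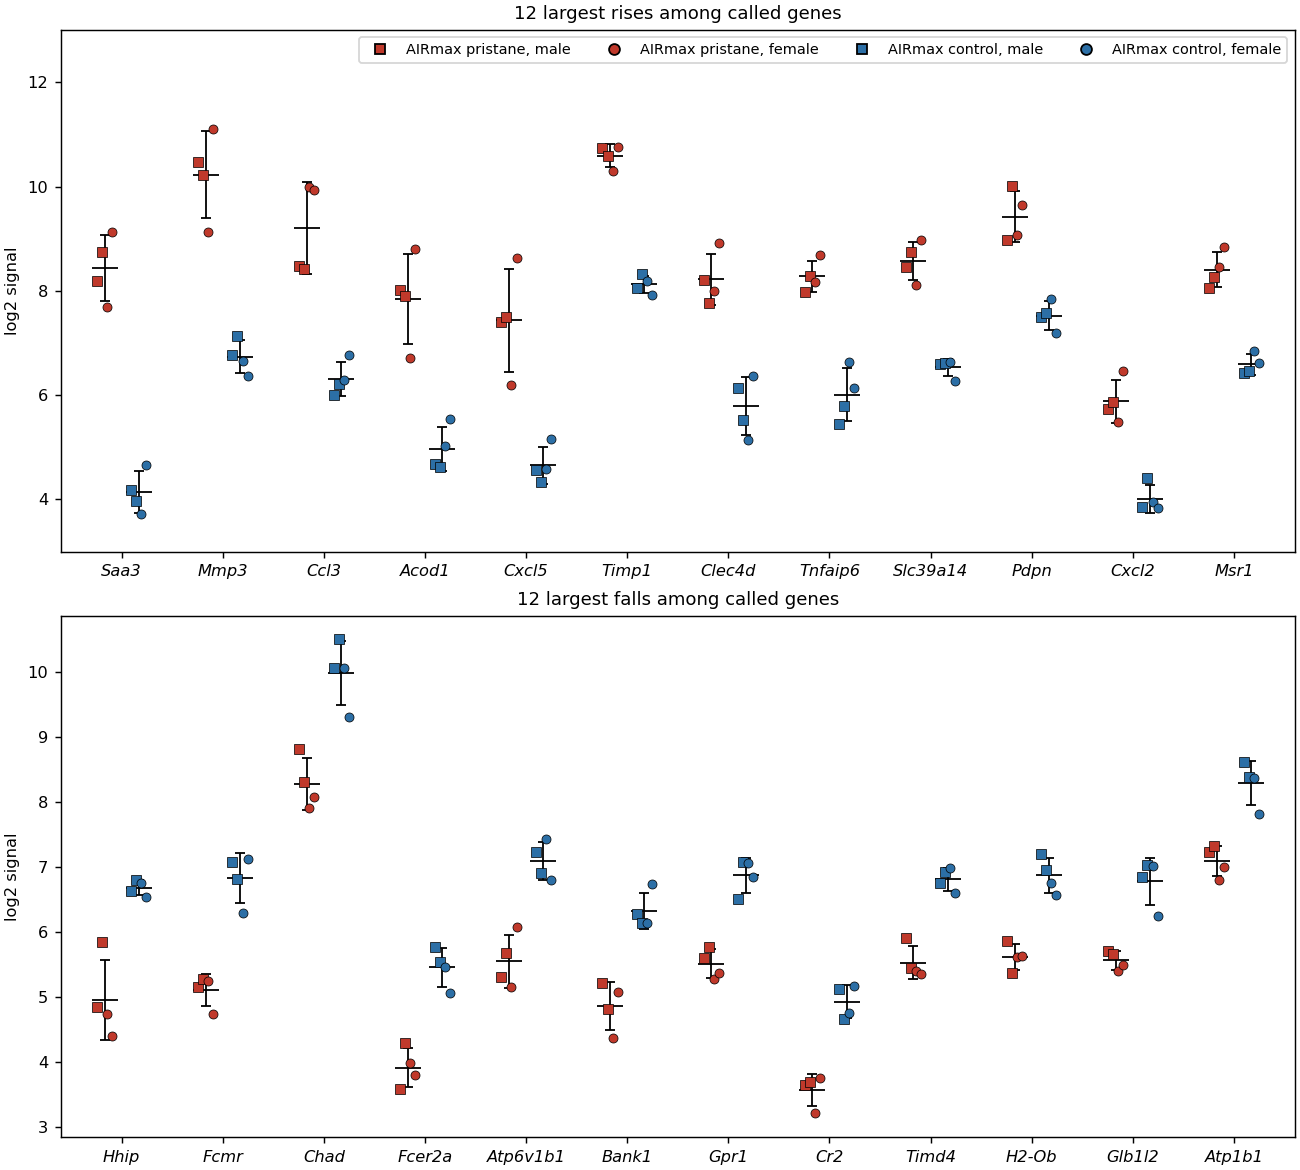
Log2 signal on each AIRmax array for the 12 called genes with the largest rises (top) and the 12 with the largest falls (bottom), pristane in red left of control in blue, squares for males and circles for females, with bars at the mean ± SD of 4 arrays. In every gene all pristane points lie on one side of all control points, and Timp1 and Slc39a14 have a tight spread while Cxcl5 and Ccl3 have a wide one.

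A few genes of fibroblasts and collagen processing rose. Pdpn, podoplanin, a marker of synovial lining fibroblasts and lymphatic endothelium, read 8.98, 10.00, 9.07 and 9.65 in pristane and 7.49, 7.57, 7.85 and 7.20 in control footpads, a 3.73-fold rise (adjusted p = 0.0241). Itga5, the alpha chain of the fibronectin receptor, rose 2.45-fold (8.52 ± 0.26 in pristane and 7.23 ± 0.19 in control footpads, adjusted p = 0.0190). These were the called members among 28 measured genes of the activated fibroblast list, of which 20 had a positive and 8 a negative fold change, and whose scores overlapped between the groups. Grem1, an antagonist of bone morphogenetic proteins, was lower without overlap and not called (-1.01 ± 0.21 SE, adjusted p = 0.0953). Cthrc1, a secreted collagen triple helix protein of activated fibroblasts, missed the threshold (9.13 ± 0.69 in pristane and 7.28 ± 0.15 in control footpads, adjusted p = 0.0512). P4ha3, a subunit of the prolyl hydroxylase that collagen chains need for folding, rose 2.74-fold (6.77 ± 0.42 in pristane and 5.31 ± 0.22 in control footpads, adjusted p = 0.0355). It was the only called gene among the 32 entries of the collagen list, in which Loxl3 is counted 2 times. All 32 entries had a positive fold change, with a median of 0.44. At an unadjusted p under 0.05, 18 entries were higher, both Loxl3 entries among them, beside 7.54% of all genes. The list's scores did overlap: pristane array 109 scored -0.17, beside 0.30, 0.47 and 0.42 on the other pristane arrays, against -0.25, -0.07, -0.18 and -0.52 on the control arrays. Col6a3 (0.93 ± 0.20 SE) and Col5a3 (0.75 ± 0.16 SE) were the uncalled members with the smallest p. Tnfaip6, which encodes TSG-6, a hyaluronan-binding protein that tumor necrosis factor and interleukin 1 induce in synovial fibroblasts, read 7.98, 8.29, 8.17 and 8.69 in pristane footpads, against 5.44, 5.79, 6.64 and 6.14 in control footpads (4.84-fold, adjusted p = 0.019). It was the called gene among 24 of the NF-kappaB and TNF list, whose median was 0.42. In that list 16 genes were higher and 1 was lower at an unadjusted p under 0.05.

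Some macrophage genes and innate receptors rose, and most members of their lists did not pass the test. Msr1 (chr8:39543232-39642750), the class A scavenger receptor, read 8.06, 8.27, 8.46 and 8.85 on the pristane arrays, against 6.43, 6.46, 6.85 and 6.62 on the control arrays (3.53-fold, adjusted p = 0.0098). Clec4d, a C-type lectin receptor for mycobacterial glycolipid on myeloid cells, had signals of 8.21, 7.77, 8.0 and 8.91 in pristane and 6.14, 5.53, 5.14 and 6.36 in control footpads (5.39-fold, adjusted p = 0.0264). Cd14, the co-receptor for lipopolysaccharide, rose 2.99-fold (8.24 ± 0.57 in pristane and 6.66 ± 0.11 in control footpads, adjusted p = 0.0492), just inside the threshold. Cd68, a lysosomal glycoprotein that marks macrophages, rose 1.75-fold with little spread (10.41 ± 0.20 in pristane and 9.60 ± 0.05 in control footpads, adjusted p = 0.0309). These were the called genes among 24 measured in the macrophage and monocyte list, of which 19 had a positive and 5 a negative fold change, with a median of 0.39. The 5 were Cd163 (-0.50 ± 0.32 SE), Ccr2 (-0.37 ± 0.41 SE), Mrc1 (-0.32 ± 0.16 SE), Mertk (-0.04 ± 0.21 SE) and Csf1r (-0.01 ± 0.14 SE), none called. Of 24 Toll-like and C-type lectin receptor genes 2 were called, both higher, and the score of that list overlapped between the groups. The macrophage score was 0.25, 0.17, 0.11 and 0.60 on the pristane arrays and -0.44, -0.39, -0.25 and -0.04 on the control arrays. In whole tissue, more cells of a type and more RNA per cell cannot be told apart, and the same holds for falls. Of 23 lysosomal genes none was called, and 22 had a positive fold change, with a median of 0.37 and 12 at an unadjusted p under 0.05. The cathepsins Ctsc (0.62 ± 0.12 SE) and Ctsb (0.49 ± 0.11 SE) and the legumain gene Lgmn (0.57 ± 0.12 SE) had the smallest p. Tlr2, outside the threshold, had means of 8.88 in pristane and 7.60 in control footpads (adjusted p = 0.0780). Cd200r4, a member of the CD200 receptor family of myeloid cells, passed the test with both group means below the background level, and no fold is given.

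Complement and kinin genes added to the rises. Cfb, factor B of the alternative pathway, averaged 9.74 ± 0.34 in pristane and 8.44 ± 0.18 in control footpads (2.46-fold, adjusted p = 0.0286). C3ar1, the receptor for the fragment C3a, averaged 9.71 ± 0.37 in pristane and 8.30 ± 0.35 in control footpads (2.65-fold, adjusted p = 0.0488). The other 19 of 21 measured entries of the complement list were not called, and the list's median was 0.34. One of these entries was the olfactory receptor gene Olfr48 (log2 difference 0.005), which is not a complement gene. The component C3 had no entry of its own, so nothing is said about it here. Bdkrb1, the bradykinin B1 receptor, which is induced in injured tissue and takes part in inflammatory pain, read 6.17, 6.12, 6.63 and 7.29 in pristane footpads, against 4.95, 4.91, 4.98 and 4.48 in control footpads, where array 108 lay apart below the others (3.30-fold, adjusted p = 0.0380).

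Enzymes that use arginine or make itaconate, which activated macrophages can express, rose side by side. Which cells of the footpad expressed them was not measured. Acod1, which makes itaconate from an intermediate of the citric acid cycle, read 8.01, 7.90, 6.71 and 8.80 on the pristane arrays, against 4.68, 4.63, 5.03 and 5.54 on the control arrays (7.38-fold, adjusted p = 0.0319). Nos2, inducible nitric oxide synthase, averaged 5.98 ± 0.29 in pristane and 4.77 ± 0.07 in control footpads (2.31-fold, adjusted p = 0.019). Arg1, arginase 1, which competes for the same arginine, averaged 7.45 ± 0.55 in pristane and 5.76 ± 0.20 in control footpads (3.23-fold, adjusted p = 0.0380). Il4ra, the receptor chain for interleukins 4 and 13, rose 2.26-fold (9.41 ± 0.15 in pristane and 8.24 ± 0.37 in control footpads, adjusted p = 0.0419), although this call was lost in each of the 8 fits without 1 array, where its log2 difference was 1.03 to 1.32. The 3 enzymes were the called genes of 20 in the list on reactive oxygen, nitric oxide and arginine, whose scores overlapped between the groups. Catalase, Cat, had means of 8.60 in pristane and 9.33 in control footpads and was not called (adjusted p = 0.065). The remaining called rise outside the chemokines was Stac2, an adaptor of calcium channels, with 6.13 ± 0.08 in pristane and 5.51 ± 0.11 in control footpads (1.54-fold, adjusted p = 0.0395).

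Chemokines supplied 4 of the 28 rises, of 33 measured. Ccl3 read 8.47, 8.42, 9.99 and 9.93 in pristane and 5.99, 6.22, 6.29 and 6.77 in control footpads, and Cxcl5 read 7.40, 7.50, 6.19 and 8.63 in pristane and 4.56, 4.33, 4.57 and 5.17 in control footpads. The control means of Cxcl2 and Cxcl3 were below the background level, so these were at least 2.93-fold and at least 1.39-fold higher in pristane footpads. Cxcl13 had the second largest difference of all genes (4.17 ± 0.70 SE), which missed the threshold (adjusted p = 0.0576). It is singled out after its values were seen, as is Slc13a3, a sodium-coupled dicarboxylate transporter of the plasma membrane. Slc13a3 read 7.17, 8.64, 10.35 and 9.90 on the pristane arrays and 5.75, 5.73, 5.88 and 6.07 on the control arrays (adjusted p = 0.0755). Both genes were higher on both female than on both male pristane arrays, and no sex by pristane interaction passed for any gene in limma (0 of 19938, with 559 or 2.8% at an unadjusted p under 0.05).

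Genes of B lymphocytes were prominent among the falls. Fcmr, the receptor for the constant part of IgM, read 5.16, 5.29, 5.25 and 4.75 in pristane footpads, against 7.09, 6.81, 6.30 and 7.13 in control footpads (log2 difference -1.72 ± 0.20 SE, adjusted p = 0.019). Bank1, a scaffold of B cell receptor signalling, read 5.21, 4.83, 4.38 and 5.07 in pristane and 6.28, 6.15, 6.14 and 6.74 in control footpads (difference -1.45 ± 0.20 SE, adjusted p = 0.0327). Fcer2a, the low-affinity IgE receptor CD23 of mature B cells, read 3.59, 4.30, 3.99 and 3.80 in pristane and 5.78, 5.55, 5.46 and 5.06 in control footpads. Cr2, the complement receptor CD21 of B cells and follicular dendritic cells, read 3.66, 3.69, 3.22 and 3.76 in pristane and 5.13, 4.67, 4.77 and 5.17 in control footpads. The pristane means of both lay below the background level, so that Fcer2a was at least 2.22-fold and Cr2 at least 1.54-fold lower in pristane footpads (adjusted p = 0.0215 for Fcer2a and 0.021 for Cr2).

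These were the 4 called genes of 17 measured in the mature B cell list. The median of the list was -0.96, 12 genes were lower at an unadjusted p under 0.05 (6.9% of all genes), and 11 were lower without overlap (4.3% of all genes). Cd72 was the 1 member higher at that p (1.78 ± 0.58 SE, not called). With dim genes left out, 5 of the 17 remained and their median was -0.50. Cd22 was the next, with means of 4.40 in pristane and 5.41 in control footpads (adjusted p = 0.058). The B cell score was -0.12, -0.74, -0.73 and -0.22 on the pristane arrays and 0.69, 0.33, 0.12 and 0.67 on the control arrays. Of 18 B cell precursor genes and 13 plasma cell genes none was called, with medians of -0.33 and -0.04. H2-Ob and H2-Oa, the chains of HLA-DO's mouse counterpart, which restrains peptide loading of MHC class II in B cells and some other cells, fell as well. H2-Ob (chr17:34238905-34245908) read 5.86, 5.38, 5.62 and 5.63 on the pristane arrays, against 7.21, 6.95, 6.76 and 6.57 on the control arrays (difference -1.25 ± 0.16 SE, adjusted p = 0.0241). H2-Oa averaged 5.29 ± 0.23 in pristane and 6.19 ± 0.18 in control footpads (difference -0.90 ± 0.14 SE, adjusted p = 0.0489). In the list of 12 genes of MHC class II presentation 2 genes passed the test. At an unadjusted p under 0.05, 9 genes were lower and 1, the cathepsin S gene Ctss, was higher (0.68 ± 0.18 SE), and the median was -0.72.

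Other leukocyte genes that fell are known from lymphocytes, plasmacytoid dendritic cells and resident macrophages. Cd2, an adhesion receptor of lymphocytes, averaged 5.47 ± 0.29 in pristane and 6.59 ± 0.11 in control footpads (difference -1.12 ± 0.15 SE, adjusted p = 0.0264). It was the called gene among 21 genes of the T cell list, whose median was -0.16. Siglech, a marker of plasmacytoid dendritic cells, averaged 4.53 ± 0.12 in pristane and 5.37 ± 0.14 in control footpads (difference -0.84 ± 0.10 SE, adjusted p = 0.0241). It was the only called gene among 17 of the dendritic and Langerhans cell list, whose median was -0.22. In that list 6 genes had a positive and 11 a negative fold change, and 2 were higher and 5 lower at an unadjusted p under 0.05. Timd4, a receptor for phosphatidylserine on resident macrophages, read 5.91, 5.45, 5.40 and 5.36 in pristane footpads, against 6.75, 6.93, 6.99 and 6.60 in control footpads (difference -1.28 ± 0.15 SE, adjusted p = 0.019). Timd4 thus moved opposite to Cd68 and Msr1. Ifi214, an interferon-inducible gene of the PYHIN family, passed with both group means below the background level, and no fold is given.

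Several falls were in genes of structural tissues. Chad (chr11:94565047-94569127), chondroadherin, a matrix protein of cartilage and tendon, read 8.81, 8.31, 7.91 and 8.07 in pristane footpads, against 10.06, 10.50, 10.06 and 9.32 in control footpads (difference -1.71 ± 0.27 SE, adjusted p = 0.0488). It was the only called gene of 20 in the cartilage list and of 13 in the tendon list, and the cartilage genes Acan and Col2a1 had differences of -0.17 and -0.06. Hhip, an inhibitor of Hedgehog ligands, read 4.85, 5.84, 4.74 and 4.41 on the pristane arrays and 6.64, 6.80, 6.76 and 6.55 on the control arrays (difference -1.72 ± 0.27 SE, adjusted p = 0.0455). Atp6v1b1, a subunit of the proton pump of acid-secreting epithelial cells, read 5.31, 5.67, 5.16 and 6.08 in pristane and 7.23, 6.91, 7.44 and 6.80 in control footpads (difference -1.54 ± 0.22 SE, adjusted p = 0.0355) and was the called gene of 17 in the eccrine sweat gland list. Cnp, an enzyme of myelin, averaged 7.0 ± 0.17 in pristane and 7.77 ± 0.14 in control footpads (difference -0.78 ± 0.12 SE, adjusted p = 0.0404), the called gene of 17 in the Schwann cell list. The call of Cnp was lost in each of the 8 fits without 1 array, where its log2 difference was -0.85 to -0.72. Among 14 osteoblast and bone matrix genes none was called. The osteocyte gene Dmp1 had means of 6.61 in pristane and 7.59 in control footpads (adjusted p = 0.0624), and the median was -0.30. The 14 osteoclast genes, also without a call, had a median of 0.44, with 6 higher at an unadjusted p under 0.05.

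Transporters and enzymes outside the lists filled most of the other falls. Abca8a, Abca8b and Abca9, neighbouring genes of lipid transporters on chromosome 11, fell by 1.11, 0.98 and 0.91 on the log2 scale (adjusted p from 0.0264 to 0.0375). Because these genes arose by tandem duplication, their probes may share signal. Gpr1, a chemerin receptor, read 5.61, 5.78, 5.28 and 5.38 in pristane and 6.50, 7.08, 7.07 and 6.85 in control footpads (difference -1.36 ± 0.16 SE, adjusted p = 0.019). Atp1b1, the beta chain of the sodium pump, read 7.24, 7.32, 6.81 and 7.0 in pristane and 8.62, 8.39, 8.37 and 7.82 in control footpads (difference -1.21 ± 0.18 SE). Glb1l2, a beta-galactosidase-like gene, read 5.72, 5.66, 5.40 and 5.49 in pristane and 6.84, 7.03, 7.01 and 6.26 in control footpads (difference -1.22 ± 0.18 SE). Pristane and control arrays were thus apart in each of these genes, with the lowest control array, 108, nearest to the pristane arrays in Atp1b1 and Glb1l2. Fhl1, a LIM domain protein abundant in muscle, fell by 1.17, and the metabolic enzymes Cmbl, Echdc1, Aadac, Cyp2f2 and Akr1e1 fell by 1.16, 1.13, 1.09, 1.01 and 0.84. Art3, an ADP-ribosyltransferase family gene, fell by 1.03 and 2610008E11Rik by 0.62. Their adjusted p values lay between 0.0257 and 0.0419.

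The muscle and fat lists held no called gene, although most of their members had negative fold changes. All 30 skeletal muscle contractile genes had a negative fold change, with a median of -0.94 and 20 at an unadjusted p under 0.05, and 17 of 19 muscle metabolism genes were below 0 with a median of -0.91. Array scores of the contractile list were -0.17, 0.39, -1.20 and -0.84 on the pristane arrays, against 0.60, 0.54, 0.64 and 0.04 on the control arrays. Pristane male 110 thus lay among the controls, and the females 111 and 112 lay lowest. Mylpf, the fast muscle myosin light chain, had means of 7.90 in pristane and 8.98 in control footpads (adjusted p = 0.116). When the contractile score was added to the fit, a setting tried only after the data had been seen, Timp1 alone of the 56 passed. All 18 adipocyte genes were negative too, with a median of -0.99 and 16 at an unadjusted p under 0.05, and the adipocyte score did not overlap (0.00, -0.70, -0.73 and -0.39 in pristane, against 0.18, 0.61, 0.81 and 0.23 in control footpads). Cidec, a lipid droplet protein of fat cells, had means of 6.68 in pristane and 7.75 in control footpads (adjusted p = 0.0706), and Adipoq, which encodes adiponectin, had means of 7.09 in pristane and 8.63 in control footpads. The 23 genes of lipogenesis and sterol synthesis were all negative, with a median of -0.52. Whether less muscle or fat in the sampled tissue had a part in any fall above was not tested. The contractile score itself averaged -0.45 in pristane and 0.45 in control footpads. A fit with that score therefore cannot separate muscle content from treatment, and no fat score was fitted.

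**Figure D3:**
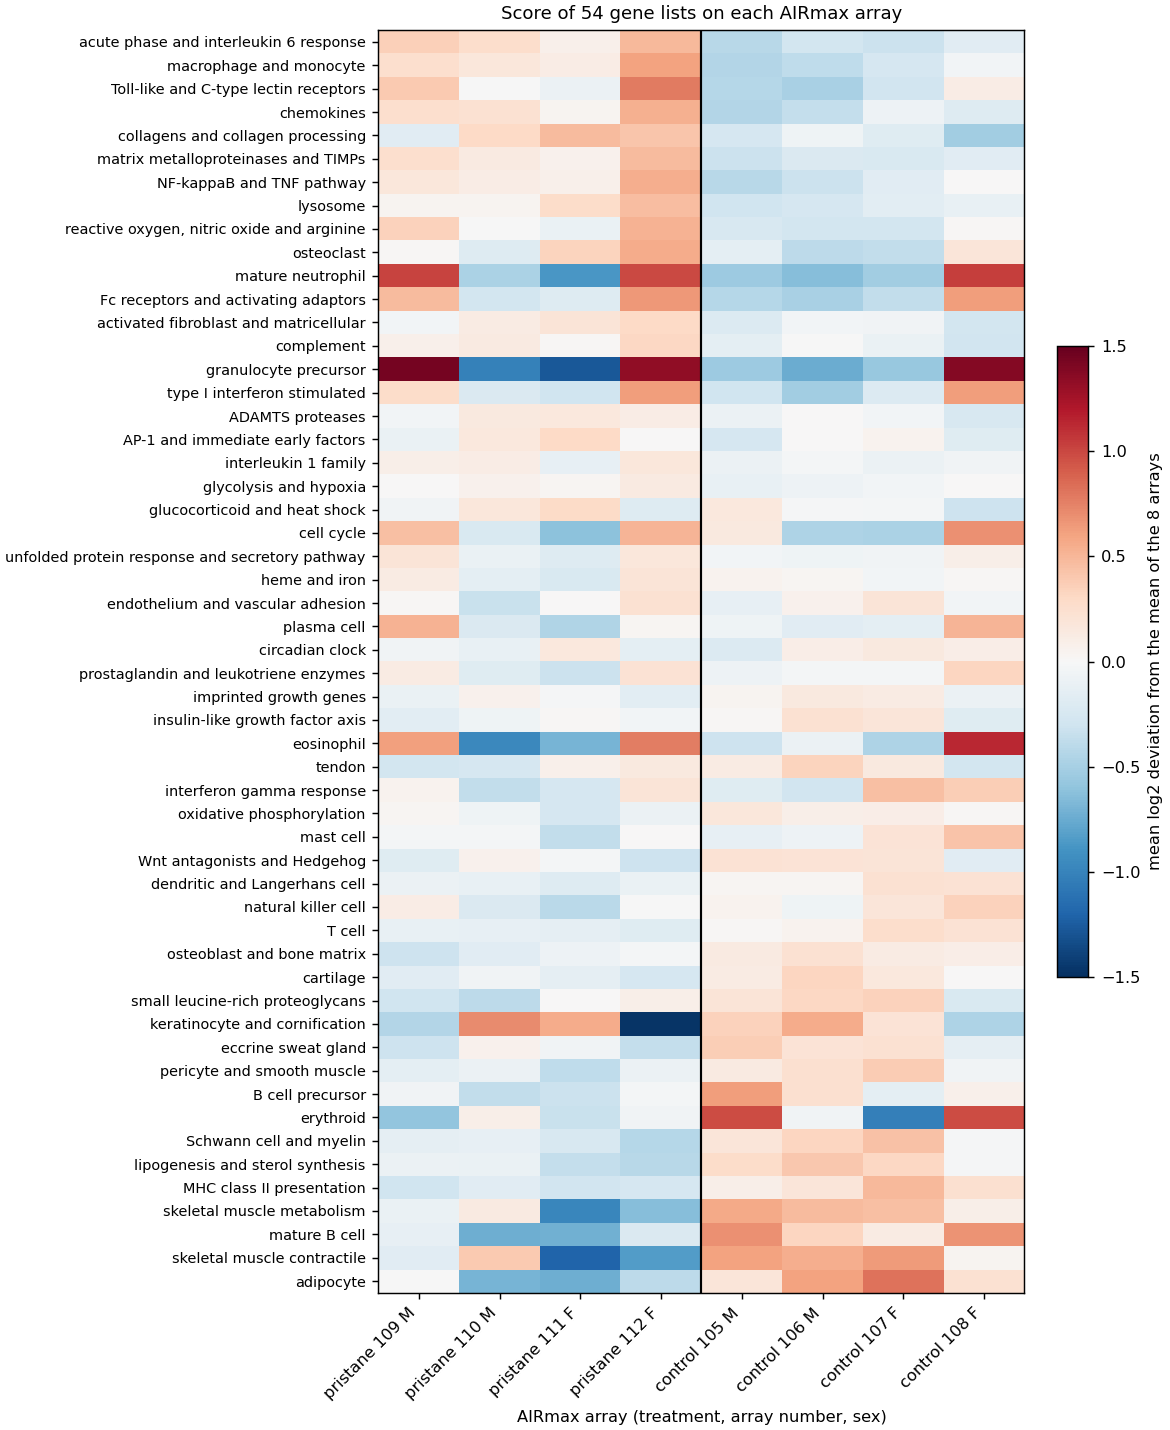
Score of each of 54 gene lists (rows, ordered by pristane minus control) on the 8 AIRmax arrays (columns, 4 pristane left of 4 control, with array number and sex), in log2 units relative to each gene's own 8-array mean, averaged over the list. Acute phase, macrophage and matrix enzyme lists are red on all pristane arrays and adipocyte and mature B cell lists are blue or near 0 there, while granulocyte precursor, neutrophil and eosinophil lists are high on arrays 109, 112 and 108, across both groups.

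Granulocyte genes did not follow treatment. The granulocyte precursor score, over genes such as Elane, Mpo and Prtn3 that are made in bone marrow, was 1.44, -1.02, -1.27 and 1.33 on the pristane arrays and -0.54, -0.74, -0.57 and 1.38 on the control arrays. Mature neutrophil, eosinophil and cell cycle scores were high on the same arrays, 109, 112 and 108. None of the 10 precursor genes, 19 mature neutrophil genes, 10 eosinophil genes or 31 cell cycle genes was called, nor had any an unadjusted p under 0.05. Elane, neutrophil elastase, read 11.68, 8.76, 8.55 and 11.44 in pristane and 9.68, 9.54, 9.78 and 11.69 in control footpads. Without these 3 arrays, which left 2 pristane and 3 control arrays, 426 genes were called, 126 higher and 300 lower, among them 53 of the 56. With the precursor score as a covariate 440 were called, including all 56. Both settings were chosen after seeing the data. Type I interferon (22 genes), unfolded protein response (24) and heme and iron (20) lists held no called gene, with medians of 0.19, 0.04 and 0.00.

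The genes called in AIRmax were also looked up on the 8 AIRmin arrays. In AIRmin no gene was called (0 of 19938), and 2469 (12.4%) had an unadjusted p under 0.05, 5.12% higher and 7.27% lower. Of the 28 genes that rose in AIRmax, 10 were higher and 18 lower in pristane than in control AIRmin footpads, with a median of -0.23, where 54.7% of all genes were higher. At an unadjusted p under 0.05 in AIRmin, 9 of these were lower and 1 was higher, beside 7.27% and 5.12% of all genes. Of the 28 genes that fell in AIRmax, 27 were lower in AIRmin too, where 45.3% of all genes were lower, and their median was -0.55, against -1.14 in AIRmax. The genes were chosen by their falls in AIRmax, so these medians do not compare the size of the fall between the lines. In AIRmin 16 of these 28 were lower at an unadjusted p under 0.05, beside 7.27% of all genes. Bank1 had log2 differences of -1.45 ± 0.20 SE in AIRmax and -1.12 ± 0.22 SE in AIRmin. Cmbl was the exception, with differences of -1.16 in AIRmax and 0.01 in AIRmin.

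The difference between the lines was tested as an interaction over all 16 arrays, which includes the AIRmax arrays that gave the calls above. It passed for 34 genes (0.171%), in each of which the AIRmax response was the more positive. Mmp3 had a response of 3.50 in AIRmax and -0.79 in AIRmin (difference 4.29 ± 0.49 SE, adjusted p = 0.00092). Saa3 passed as well (adjusted p = 0.00015), but its means in AIRmax controls and in both AIRmin groups lay below the background level. The size of its difference is therefore not known exactly. Timp1 passed with 2.47 in AIRmax and -0.60 in AIRmin (adjusted p = 0.00011), and Tnfaip6 with 2.28 in AIRmax and -0.62 in AIRmin (adjusted p = 0.0242). Cxcl5 passed too (adjusted p = 0.0210), with both AIRmin means below the background level. For Acod1 (2.88 in AIRmax, 0.66 in AIRmin) and Clec4d (2.43 in AIRmax, 0.35 in AIRmin) the interaction missed the threshold (adjusted p = 0.0836 and 0.174). None of the 28 genes that fell passed it, although 17 of them had an unadjusted interaction p under 0.05, as did 1637 of all genes (8.21%), so a difference between the lines in these falls was not shown and equal falls were not shown either. The median fold change of the collagen list was 0.44 in AIRmax and -0.51 in AIRmin, that of the macrophage list 0.39 in AIRmax and -0.41 in AIRmin, and that of the mature B cell list -0.96 in AIRmax and -0.68 in AIRmin.

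**Figure D4:**
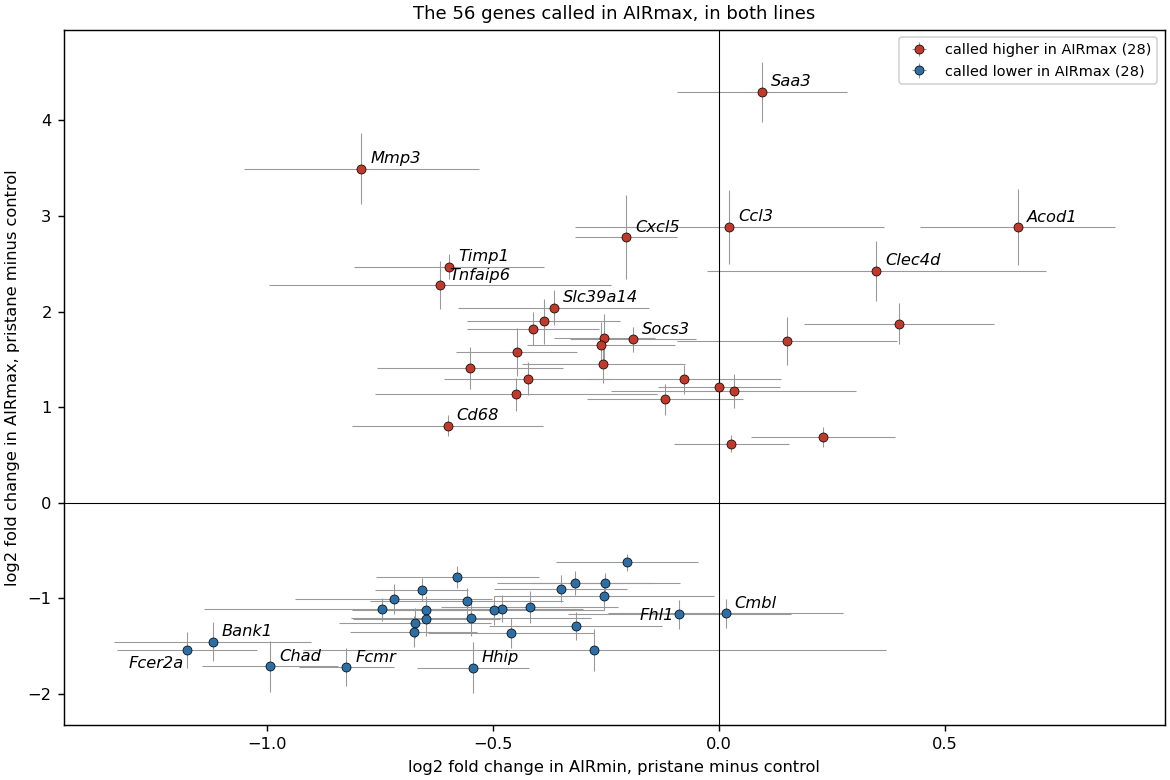
Log2 fold change (pristane minus control) of the 56 genes called in AIRmax, in AIRmax (vertical axis) against AIRmin (horizontal axis), with bars of ± 1 SE from limma. Genes called higher spread around 0 to the left in AIRmin (10 of 28 above 0), while 27 of the 28 called lower lie below 0 in AIRmin as well.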

How the data were processed

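Total RNA of footpads was hybridized to Affymetrix Mouse Gene 1.0 ST arrays. The log2 values were deposited by the authors as normalized signals per probe set. The sample titles name the gene-level RMA output and the submitters' notes name MAS5, with versions and genome build not given in the sources used here. Such normalization forces arrays to near-equal distributions, so only relative changes are seen. The deposited values were used unchanged. Detection calls and scanner files were not used here, and no background correction could be varied.

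Of 35556 probe sets, 21789 named 1 gene and 21698 of these matched RefSeq (GRCm38.p6) by Entrez number. The probe set with the highest mean stood for a gene, which gave 19938 genes. Groups came from the sample labels. Pristane was set against control with limma 3.58.1 (lmFit, eBayes, R 4.3.3) on the 8 AIRmax arrays, with Benjamini-Hochberg adjustment over all genes and a threshold of 0.05. The line difference was an interaction over 16 arrays, and sex by pristane an interaction over 8. SE is that of limma. A bound against background sets each dim array to the higher of 4.311 and its own value. The labels do not say that arrays are separate mice except by number and sex, and p-values measure the spread between these samples. The number of arrays limits precision.

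Members and the 54 gene lists were chosen with earlier results of these data known, so lists are described and not tested. Named are all called genes, per-array values for the 12 largest rises and 12 largest falls, called members of each list or up to 3 with the smallest p, the 5 most positive interaction genes, and genes named as checks. Uncalled members named beside called ones, Il6, Adipoq, Elane, Cxcl13 and Slc13a3 were chosen after seeing values. The settings varied were the choice among probe sets (averaged, or every annotated one), exclusion of dim genes, array scaling (standardized or quantile), the arrays fitted together (all 16, or each left out in turn), adjustment for sex, a trended robust prior, a 2-fold minimum and SAM. SAM, the study's test, was written anew from its description with a false discovery rate of 0.05. Adjustment for granulocyte precursor or muscle signal and omission of 3 arrays were added after seeing the data. Python 3.11.15 was used for tables and figures.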

Additional observations from a re-analysis of the deposited data

Results flagged for a closer look

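Of 220 groups of 4 arrays tested, 16 had an array lying apart from the other 3, a distance that chance gives in about 1 of 20 groups. Control array 108 accounts for 10 of them. It was low in Bdkrb1 (4.48) and Slc39a14 (6.28), and in the scores of skeletal muscle contractile genes (0.0395) and of Wnt antagonists and Hedgehog (-0.17). It was high in the scores of granulocyte precursors (1.38), mature neutrophils (1.04), Fc receptors and activating adaptors (0.62), plasma cells (0.51), prostaglandin and leukotriene enzymes (0.32) and reactive oxygen, nitric oxide and arginine (0.0184). Control array 105 was low in the circadian clock score (-0.20). Among the pristane arrays, 110 was low in 2610008E11Rik (6.91), 112 in Aadac (5.33) and 111 in Cmbl (6.17) and the mast cell score (-0.37), while 109 was high in Timd4 (5.91). The log2 differences between pristane and control keep their direction without each of these arrays for the 6 genes named here.

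The interaction test set 22 named genes apart, with a response in AIRmax more positive than in AIRmin by the following log2 values. Beyond Mmp3 (4.29), Saa3 (4.21), Timp1 (3.07), Cxcl5 (2.98) and Tnfaip6 (2.89), these were Slc39a14 (2.41), Pdpn (2.29), Msr1 (2.23), Cd14 (2.03), Bdkrb1 (1.98), C3ar1 (1.96), Mmp19 (1.91), Socs3 (1.90), Cfb (1.72), P4ha3 (1.71), Cd68 (1.41) and Nos2 (1.21). Trem2 (1.11), Fstl1 (1.06), Rrad (0.89), Renbp (0.85) and Pofut2 (0.72) were not called in AIRmax alone. Their responses in AIRmax and AIRmin were 0.87 and -0.25 for Trem2, 0.39 and -0.67 for Fstl1, and 0.68 and -0.22 for Rrad. For Renbp they were 0.57 and -0.28, and for Pofut2 0.35 and -0.37, so falls in AIRmin were part of these differences. The values of Saa3 and Cxcl5 rest in part on group means below the background level and are not exact sizes.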

How the results depend on the processing

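The 56 calls became 35 with dim genes left out, 338 with all 16 arrays in 1 fit, 109 with sex as a covariate, 754 with SAM (192 higher, 562 lower), 426 without the 3 arrays of high granulocyte precursor signal, 440 with that score as a covariate and 1 (Timp1) with the muscle contractile score in the fit. Leaving out 1 array at a time gave 4 to 107 calls, and the cause was not tested. The other settings gave 45 to 58. The 34 interaction calls became 61 with standardized arrays and 15 to 120 without 1 array (15 without AIRmin control 116, 16 without AIRmax control 105 or AIRmin pristane 117, 17 without AIRmax pristane 112, 22 without AIRmin pristane 119, 71 without AIRmin pristane 118 and 120 without AIRmax pristane 109). The sex interaction called 0 genes in every setting run.

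With dim genes left out, list medians moved to 0.50 (acute phase), 0.43 (metalloproteinases), 0.10 (ADAMTS), 0.29 (interleukin 1 family), -0.53 (sweat gland), -0.50 (mature B cell), -0.32 (dendritic cell) and -0.30 (imprinted genes). With standardized arrays they moved to 0.17 (glycolysis and hypoxia) and -0.0418 (oxidative phosphorylation). Without the 3 arrays they moved to 0.22 (complement), 0.30 (AP-1), -1.36 (adipocyte) and -0.14 (osteoblast). Without 1 array, medians ranged from 0.0677 to 0.235 (ADAMTS), 0.24 to 0.61 (macrophage), -0.0684 to 0.181 (interleukin 1 family), -0.84 to -0.58 (MHC class II), 0.0567 to 0.171 (glycolysis) and -0.143 to 0.0022 (imprinted genes). The other 678 list values stayed within 1 SD of the array scores.

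Of the values of named genes under the alternatives, 2322 kept direction and side of the threshold, 375 lost the threshold, 73 gained it and 9 reversed, all in genes that were not called. Chil3 and Prtn3 ranged from -0.052 to 1.25 and from -0.0851 to 0.871 without 1 array (-0.052, -0.0584 and -0.0851 where reversed). Without the 3 arrays Chil3 was -0.43, Prtn3 -0.34, Cebpe -0.0724 and Alas2 0.0405. With the muscle score in the fit Mcm6 was -0.0657 and Tk1 -0.0632. Low signals limit the folds of the 7 called genes with a group below background. No paired analysis was possible because the groups share no replicate numbers.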
